A study of Carica papaya with 15 samples.

Results

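The set described here holds 118 of the 20332 genes in the expression table, those that stood high in papaya pulp after 12 h of ethylene and stayed high for a further 12 h out of the gas. They were selected on the expression values themselves, on a log2 scale after adding 1 to the normalized count. In a selected gene the lowest of the 6 ethylene libraries lay above the highest of 8 control libraries, and the means of both treated groups lay at least 2 above the mean of those controls. The treated means also differed from each other by under 1.5, and the mean over all 15 libraries was at least 20. The differences between treated and control libraries, and between 12 and 24 h, are therefore descriptions of how the set was chosen, and no test of them is given for its members.

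Each library was a pool of peeled, seedless fruit of the cultivar "Golden" from 1 of 3 harvests, marked A, B and C. C0h, C12h and C24h were control fruit kept without added ethylene and sampled at 0, 12 and 24 h, with 3 libraries each. T12h and T24h were fruit held in ethylene at 100 ppm for 12 h and sampled at 12 h or at 24 h. These groups again had 3 libraries each. The paper states that treated fruit left the gas and were vented in air before T12h fruit were frozen. T24h fruit were then kept out of the gas until 24 h. Fruit of all groups were pre-climacteric when the experiment began, and the pool of fruit, not the single fruit, is the replicate. In pulp pools, fewer cells of a type and less RNA per cell cannot be told apart.

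Papaya is a climacteric fruit, in which ethylene binds receptors on internal membranes, relieves the block that the kinase CTR1 sets on the pathway and lets transcription factors of the EIN3 family act. The ripening that follows involves pectin breakdown by polygalacturonases, volatile formation, changes in lipids and sugars, and more ethylene.

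The library labelled C24h B was left out of the choice, and it has to be described before the members. Its reads differed from those of T24h C, a library labelled with another treatment and another harvest, by a chi-square of 2.05 per degree of freedom over 13559 genes. The next closest of the 105 pairs of libraries, C12h C and C24h C, differed by 12.2, and the most distant pair by 238. The value of 2.05 is above the level of 1 that counting error alone gives. The paper reports that C24h B clustered with treated samples, and proposes a slightly raised ethylene yield in harvest B as the probable reason. Whether the libraries share material or carry exchanged labels cannot be told from the values, and the reason for the closeness of C24h B to T24h C was not tested. T24h A and T24h B, too, had C24h B as their nearest library, at 61.4 and 46.1. Because T24h C took part in the choice of members, the level of a member in C24h B is not independent support for anything. The step worth of 1 read gave between 7999275 and 12542678 reads in 13 libraries. Of 5 seed markers, ABI3, EM1 and LEA stood at 0 in nearly all libraries, with at most 0.994 normalized counts, FUS3 ranged from 0 to 5.55 and the seed storage gene PAP85 from 16.9 to 246. Their sum was 48.3 to 247 in the 9 controls and 17.9 to 238 in the treated libraries. The summed level of 7 photosystem genes that mark green peel was 148 to 496 in the 9 controls and 75.5 to 155 in the treated libraries. Without PSBO1 the other 6 summed to 48.9 to 84.5 in the controls, 33.8 to 46.8 in T12h and 71.5 to 89.5 in T24h, and the part of peel or seed in the results was not tested.

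**Figure D1:**
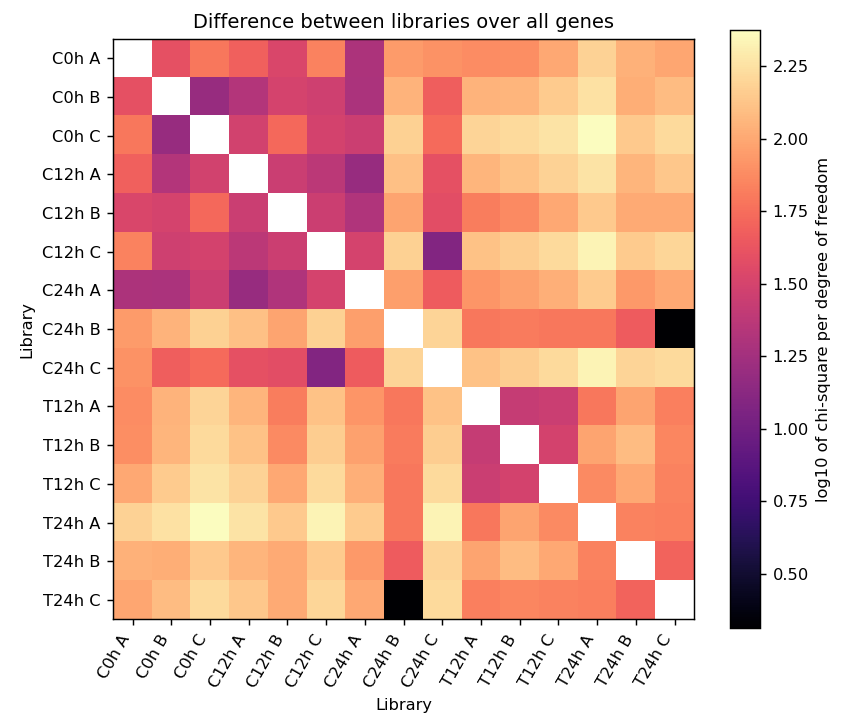
Difference between each pair of the 15 libraries, as the log10 of the chi-square per degree of freedom over the genes (colour scale), with libraries named by group and harvest on both axes. The dark square of C24h B with T24h C, at a chi-square of 2.05 per degree of freedom, stands apart from all other pairs, the next of which is at 12.2.

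Across the 118 members, the T12h mean lay 2.001 to 8.17 above the 8 controls on the log2 scale, with a median of 3.31. The T24h mean lay 2.003 to 9.16 above them, with a median of 3.42. The lowest treated library lay above the highest control by 0.024 to 3.73, with a median of 0.94, so that the gap was narrow for some members and wide for others. Among the 13234 genes whose mean reached 20, the treated libraries lay above the 8 controls in 1109 (8.38%), a background that the choice itself makes uninformative for the members. By level, 94 members had a mean of at least 100 normalized counts over the 15 libraries, 43 of at least 1000 and 13 of at least 10000. In the reference table of the ASM5485532v1 assembly, used for names alone, 114 members were found. Of these, 105 were protein coding, 7 were of a pseudogene type and 2 were long non-coding RNAs, and 27 carried a symbol.

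**Figure D2:**
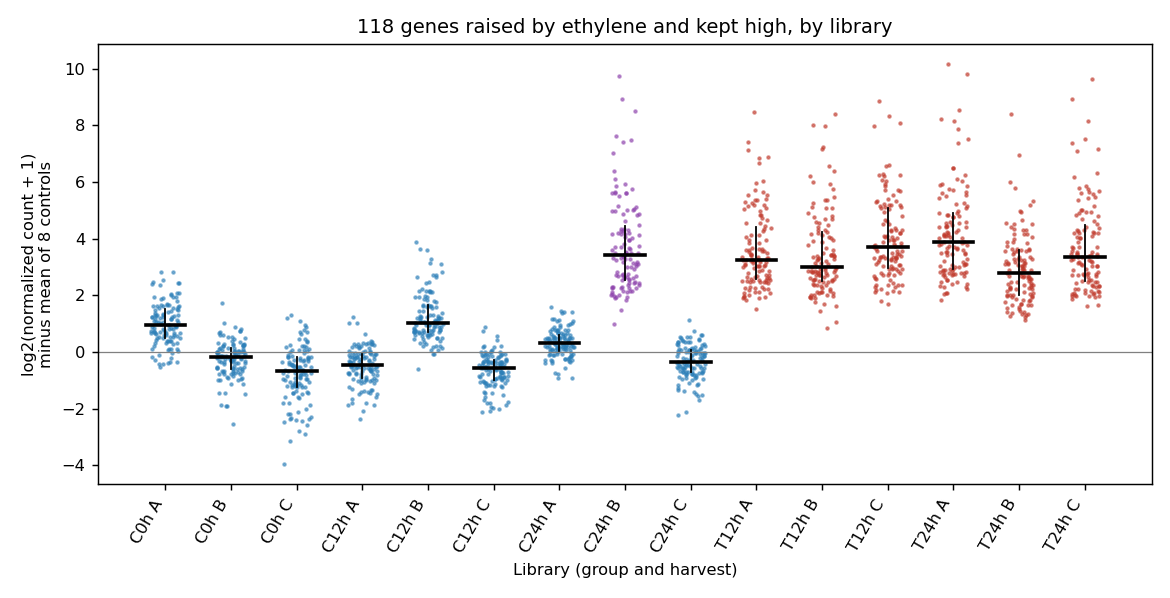
Level of the 118 genes in each library, as log2 of the normalized count plus 1 minus the mean of the 8 controls without C24h B. Points are genes, thick bars the median and thin bars the middle quartiles, blue for controls, red for ethylene and purple for C24h B, whose median of 3.43 lies among the treated medians of 2.79 to 3.86.

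The most abundant member was LOC110810572, which has no symbol. It was measured at 24727, 16674 and 11048 normalized counts in C0h A, B and C, at 9089, 24670 and 9226 in C12h, and at 14040 and 8465 in C24h A and C. With ethylene it stood at 62242, 71178 and 68833 in T12h A, B and C and at 173294, 118488 and 113641 in T24h, while C24h B held 110889. Its treated libraries lay above the 8 controls, as the rule required, and C24h B lay within the treated range. The T24h mean was 0.98 higher than the T12h mean on the log2 scale.

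Some members act on the cell wall, though with 91 members lacking a symbol their share was not measured. LOC110826274 is annotated as a polygalacturonase, the enzyme that cuts the pectin backbone. Its normalized counts were 8320, 2123 and 295 in C0h A, B and C, 552, 10039 and 759 in C12h, and 2018 and 673 in C24h A and C. They were 70910, 63518 and 81340 in T12h and 101366, 18300 and 47016 in T24h, so T24h B lay within 0.87 log2 units of the highest control. C24h B, at 50347, lay within the treated range. A further polygalacturonase, LOC110809302, was far less abundant. It had 0 to 26.5 normalized counts in the 8 controls, with a median of 5.29, and 32.8 to 385 in the 6 treated libraries, with a median of 84.7. It was named after its values had been seen. IRX3 (LOC110815766), in Arabidopsis a cellulose synthase of secondary walls, was lowest in C0h C and highest in C12h B among the controls, where it reached 656, and was at 5977, 5846 and 8696 in T12h. In T24h it was at 5451, 748 and 4023, so that T24h B came within 0.19 log2 units of C12h B. With 6.19 at 12 h and 4.79 at 24 h, IRX3 lay close to the limit on the difference between the times.

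Thaumatin-like protein TLP-3 (LOC110813533), of a family known from defence and ripening fruit, was an abundant member with a wide gap of 2.45 log2 units between treated and control libraries. Its controls held 2128, 700 and 308 normalized counts in C0h A, B and C, 306, 2619 and 385 in C12h, and 1155 and 443 in C24h A and C. Its treated libraries held 26139, 24942 and 24129 in T12h and 27138, 14342 and 37443 in T24h. The T12h libraries were within a narrow band, the T24h libraries were not, and C24h B held 39309, just over T24h C. The terpene synthase TPS04 (LOC110817861), whose Arabidopsis counterpart makes the volatile precursor geranyllinalool, had 1052 to 3787 normalized counts in the 8 controls, with a median of 2403. It had 12526 to 36615 in the treated libraries, with a median of 20016, and the highest of these was T24h A.

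Members with a symbol also included ABC transporters and genes of lipid metabolism, grouped here by their known roles and not by a test. ABCG2 (LOC110809908), an ABC transporter that exports suberin components in Arabidopsis, was at 194 to 1659 normalized counts in the 8 controls, with a median of 411. It was at 12410, 10658 and 18854 in T12h and at 20377, 3399 and 9060 in T24h. ABCG31 (LOC110810027) held 9.84 to 53.4 in the controls and 134 to 814 in the treated libraries, and ABCG11 (LOC110812948), an exporter of cuticular lipids in Arabidopsis, 1.74 to 12.8 and 15.1 to 127. ABCG11 had the largest difference between the treated times of all members, with the T24h mean 1.46 below the T12h mean on the log2 scale. FACT (LOC110814579), a fatty alcohol acyltransferase, stood at 1418 to 2962 in the controls and 7282 to 16049 in the treated libraries. KCR1 (LOC110825187), a reductase of very-long-chain fatty acid elongation, stood at 384 to 1387 and 1546 to 6106. The plastid acyl carrier protein ACP4 (LOC110823006) stood at 25.2 to 119 in the controls and 316 to 1033 in the treated libraries. MLS (LOC110823057), the malate synthase of the glyoxylate cycle, had a low level, 2.44 to 10.7 in the controls and 38.2 to 189 in the treated libraries.

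**Figure D3:**
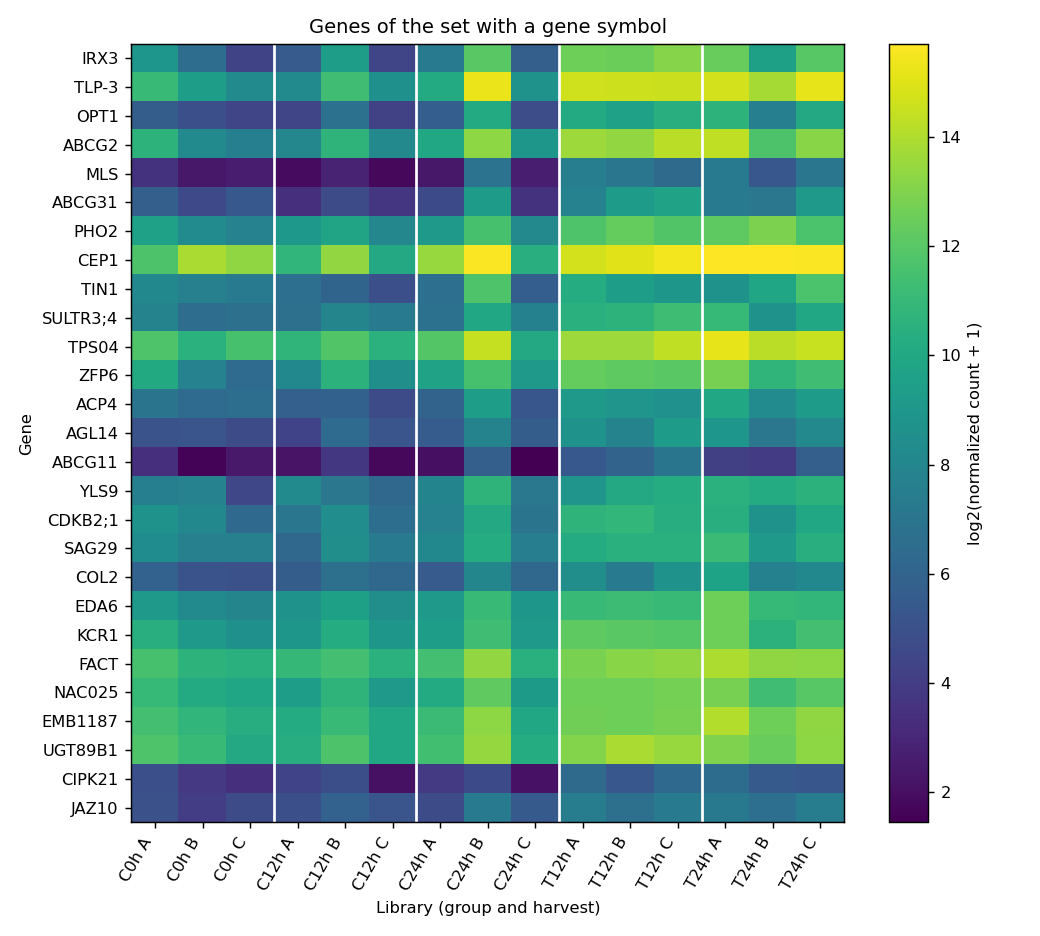
Level of the 27 members with a gene symbol in each library, as log2 of the normalized count plus 1 (colour scale), with genes ordered by their difference from the controls and groups separated by white lines. The column of C24h B resembles those of the treated libraries, and only CIPK21, at 24.1 normalized counts there, stays within its control range of 3.25 to 29.0.

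Among the members with a symbol were regulators. AGL14 (LOC110817459), a MADS-box factor, held 18.8 to 84.9 normalized counts in the 8 controls, with a median of 36.2, and 414, 227 and 640 in T12h, then 491, 137 and 290 in T24h. NAC025 (LOC110817727), of the NAC transcription factors, held 576 to 2060 in the controls and 2580 to 6913 in the treated libraries. The zinc finger gene ZFP6 (LOC110807504) ranged from 86.3 to 1541 and from 1719 to 7115, so its highest control, C12h B, lay just below T24h B. COL2 (LOC110813041), a CONSTANS-like gene, ranged from 30.7 to 102 in the controls and from 152 to 831 in the treated libraries. JAZ10 (LOC110806605), a repressor of jasmonate signalling, was at 15.3 to 61.2 and 101 to 178. CIPK21 (LOC110811052), a kinase that works with calcium sensors, was at 3.25 to 29.0 in the controls and 38.1 to 88.3 in the treated libraries, with T24h C lowest. PHO2 (LOC110817779), a ubiquitin-conjugating enzyme of phosphate balance in Arabidopsis, held 220 to 867 in the controls. It was at 3452, 5157 and 3620 in T12h and at 4601, 7681 and 3209 in T24h, with T24h B the highest, as for 6 members. CDKB2;1 (LOC110820710), a cyclin-dependent kinase of the cell division cycle, ranged from 79.8 to 424 and from 432 to 1865, the narrowest separation of all members.

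Genes of transport, stress and other roles completed the members with a symbol. OPT1 (LOC110820655), of the oligopeptide transporters, was at 17.9 to 106 normalized counts in the 8 controls and at 1138, 774 and 1349 in T12h, then 1620, 191 and 1048 in T24h. SULTR3;4 (LOC110808005), of the sulfate transporter family, ranged from 91.6 to 244 and from 433 to 2450. SAG29 (LOC110810803), a sugar transporter of the SWEET family that marks leaf senescence in Arabidopsis, ranged from 76.0 to 354 in the controls and from 553 to 2259 in the treated libraries. YLS9 (LOC110810627), known from yellowing leaves, ranged from 21.4 to 311 and from 475 to 1553. TIN1 (LOC110818994), a gene induced by tunicamycin in Arabidopsis, was uneven among the treated libraries. It was at 1260, 660 and 511 in T12h and at 426, 913 and 3253 in T24h, and C24h B, at 3526, was close to T24h C alone. The glycosyltransferase gene UGT89B1 (LOC110823550) ranged from 1014 to 3477 in the controls and from 5419 to 14930 in the treated libraries. CEP1 (LOC110823039) held 1072 to 15303 in the controls, highest in C0h B, and 27231 to 53286 in the treated libraries. EMB1187 (LOC110812663) held 964 to 2818 and 5954 to 17332, and EDA6 (LOC110815812) held 248 to 749 and 1914 to 5994.

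Members without a symbol had the widest differences. The pseudogene LOC110825971 was at 510, 32.6 and 7.13 normalized counts in C0h A, B and C, at 18.8, 903 and 24.4 in C12h, and at 155 and 78.1 in C24h A and C. It was at 25821, 10496 and 33697 in T12h and at 83630, 24392 and 35369 in T24h, and C24h B held 35476. Its differences of 8.17 at 12 h and 9.16 at 24 h were the largest of the set at either time. LOC110810472 followed, at 1.43 to 146 in the controls and 1956 to 15088 in the treated libraries. LOC110813489 was listed at 0 in 7 of the 8 controls and at 1.83 in C12h B, against 194, 381 and 363 in T12h and 428, 14.1 and 324 in T24h, so T24h B was far below the others. LOC110816417 ranged from 2.85 to 418 and from 562 to 7438. LOC110806985 ranged from 0 to 19.8 in the controls and from 166 to 1214 in the treated libraries, and LOC110812176 from 0 to 25.6 and from 111 to 282. LOC110820900 ranged from 15.7 to 480 and from 1542 to 7216. Of the abundant members without a symbol, LOC110822357 held 1937 to 11032 in the controls and 18054 to 64924 in the treated libraries. LOC110810025 held 2117 to 12598 and 20987 to 41106, and LOC110820622 held 495 to 4923 and 11008 to 45730. LOC110806540 held 337 to 5142 in the controls and 7502 to 41661 in the treated libraries, and LOC110817949 held 524 to 3805 and 11540 to 29493. The long non-coding RNA LOC110812146, named after its values had been seen, held 92.0 to 390 in the controls and 802 to 4304 in the treated libraries. The 74 members outside the rule for named genes had, by gene, a median over the 8 controls of 0 to 3571 and over the treated libraries of 26.9 to 18399 normalized counts. Their means lay up to 5.78 above the controls at 12 h and up to 5.84 at 24 h on the log2 scale.

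Some members lay next to each other in the gene order of the reference assembly, with 12 members in 13 pairs at most 5 places apart. On chromosome 4 a run of 4 held LOC110809043, the pseudogenes LOC110809044 and LOC110809072, and LOC110809045. LOC110809043 was the abundant gene of the run, with 24.2 to 3502 normalized counts in the 8 controls and 12154 to 35877 in the treated libraries. LOC110809072 held 9.27 to 228 and 1215 to 12340, LOC110809044 held 13.5 to 66.4 and 116 to 864, and LOC110809045 held 0 to 9.13 and 96.6 to 795. Another run, on chromosome 7, held TPS04, NAC025, LOC110808483 and LOC110819826. LOC110808483 and LOC110819826 had closely similar values in most libraries, for example 262, 271 and 633 against 248, 282 and 759 in T12h A, B and C. The reason for this was not tested, and their sequences were not compared. How reads of similar copies were counted is not given, so their single values are uncertain. The same caution applies to the pseudogenes of the set. The genes of these runs that have no symbol and are not among the most abundant or most different members were named for their position.

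Between the treated times the members stayed near their level, as the rule required. The T24h mean was higher in 54 members and lower in 64, with differences of -1.46 to 1.15 and a median of -0.07 on the log2 scale, and 103 members differed by less than 1. Another 18 genes met every part of the rule except this limit, 9 higher and 9 lower at 24 h. At the limit itself, ABCG11 at 1.46, IRX3 at 1.40 and LOC110816417 at 1.31 lay just inside, and SDE3 at 1.59, LOC110819853 at 1.60 and LOC110809092 at 1.60 just outside. For the separation from the controls, CDKB2;1 at 0.024, LOC110808317 at 0.084 and LOC110818579 at 0.088 lay just inside, and ATL4 at -0.014, LOC110823546 at -0.016 and LOC110825949 at -0.022 just outside. For the difference at 12 h, LOC110821321, LOC110808930 and EMB1187 lay just inside at 2.001, 2.006 and 2.022, and LOC110824948, LOC110824826 and LOC110819971 just outside, at 1.995, 1.992 and 1.990. For the difference at 24 h, LOC110823918, LOC110821321 and LOC110824109 lay just inside at 2.003, 2.017 and 2.029, and LOC110821785, LOC110808477 and LOC110824271 just outside at 1.996, 1.986 and 1.961. By mean level, LOC110821057 at 21.9, LOC110813735 at 25.7 and LOC110819844 at 25.8 normalized counts lay just inside, and LOC110816187 at 19.3, HMT-1 at 18.4 and LOC110807285 at 17.9 just outside.

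**Figure D4:**
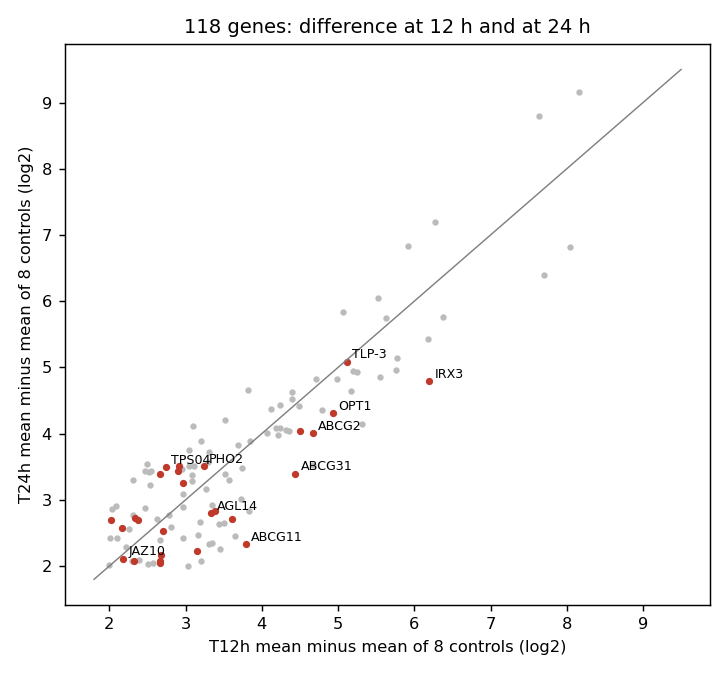
Mean of T12h (horizontal axis) and of T24h (vertical axis), each minus the mean of the 8 controls on the log2 scale, for the 118 genes, with those that carry a symbol in red and the line of equal differences. The genes follow the line because the rule limits the difference between the times, from -1.46 for ABCG11 to 1.15.

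The members did not hold the same order of libraries within each group. Among the 8 controls C12h B was the highest library for 65 members (55.1%), against 13.9% of those 13234 genes, and C0h A was the highest for 40 (33.9%, against 19.4%). C0h C was the lowest for 53 members (44.9%, against 18.3%), and C12h B was the lowest for none of them. Relative to the mean of the 8 controls, the median member stood at 1.04 in C12h B and 0.95 in C0h A on the log2 scale, and at -0.69 in C0h C. The control libraries thus spread widely over the set, with a median range of 2.43 against 0.82 for all 13234 genes. In T24h, T24h A was the highest library for 86 members (72.9%, against 36.5%) and T24h B the lowest for 86 (72.9%, against 34.3%), and T12h C was the highest of its group for 65 (55.1%, against 34.5%). The SD of log2 values within a group had a median over the members of 0.92 in C0h, 0.95 in C12h, 0.45 in T12h and 0.82 in T24h, against 0.21 to 0.30 for all those genes. The members share libraries and the same rule, so these counts are no test.

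C24h B was above the highest of the other 8 controls for 117 of 118 members, against a background of 28.8% (3815 of 13234 genes), and within the treated range for 108. The exception was CIPK21. C24h B was below the lowest treated library for 5 members and over the highest for 5, and with C24h B counted among the controls the rule found 3 genes, among them PHO2. Over the members C24h B differed from T24h C by -0.64 to 0.50 on the log2 scale, with a median of 0.03, and 117 members were within 0.5. T24h C was the library nearest to C24h B for 82 members, against 30.1% of the 13234 genes. The rule used T24h C and set the treated libraries apart from the 8 controls. The counts for the members are therefore not independent of the choice, and the shares of all genes are no fair comparison for them.

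**Figure D5:**
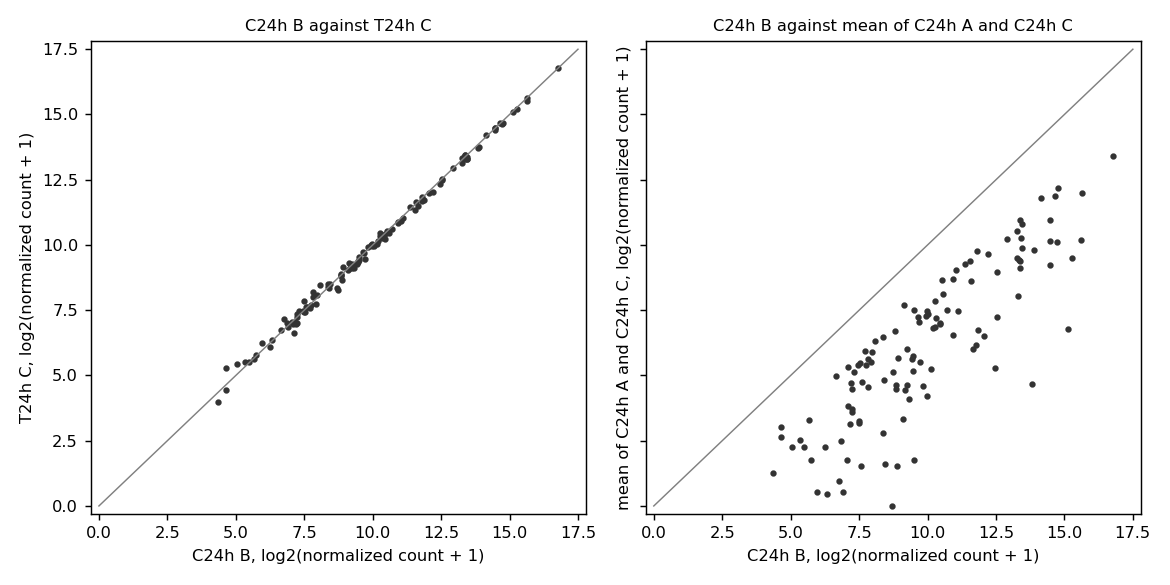
Level of the 118 genes in C24h B (horizontal axis) against T24h C (left) and against the mean of C24h A and C24h C (right), all as log2 of the normalized count plus 1, with the line of equal level. The points lie on the line on the left, within -0.64 to 0.50, and below it on the right.

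The levels of the members in control fruit at 0, 12 and 24 h, and in the 3 harvests, are given as a description. The rule bounded every library but C24h B, so that a gene with a strong rise in control fruit, or with widely different harvests, was less likely to enter the set, and a count of members called is not independent of the choice. In the fit of limma to 15270 genes, no member passed an adjusted p of 0.05 between C0h and C12h, where 0% of all genes passed. The median difference of the members was 0.10. At an unadjusted p of 0.05 no member was higher, against 2.88% of all genes, and 1 was lower, against 4.13%. Between C0h and C24h none passed either, against 0%, with a median of 1.19 and 9 members higher at the unadjusted level, against 3.26% of all genes. Without C24h B, which the rule did not bound, that median was -0.01. No member was then higher, against 2.98% of all genes, and 3 were lower, against 3.74%. Between C12h and C24h none passed, against 0%, with a median of 1.13, or -0.04 without C24h B, and 1 member was higher at the unadjusted level, against 1.61% of all genes. On the recovered reads of 13 libraries, edgeR called no member and 0% of all genes in these comparisons, and DESeq2 called no member, against 0.223%, 0.0262% and 0.0262% of all genes. With library quality weights 1, 7 and 3 members were called in the same order, against 0.504%, 6.88% and 6.67% of all genes.

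Between harvests no member passed an adjusted p of 0.05 in limma. Harvest B against A had a background of 0.00655% of genes and a median over the members of 0.45, or -0.25 without C24h B, and no member passed at the unadjusted level, against 3.92% of all genes. Harvest C against A had a background of 0% and a median of -0.53 with or without C24h B. By sign alone, whatever the p-value, 22 members had a positive difference, with or without C24h B, against 48.7% of all genes with all libraries. At the unadjusted level 6 members were lower in C, against 3.95% of all genes, and 16 without C24h B, against 5.28%. Harvest C against B had a background of 0% and a median of -0.96, which was -0.25 without C24h B. At the unadjusted level 17 members were lower in C, against 2.53% of all genes, and 2 without that library, against 1.33%.

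The members were set beside lists of genes of ethylene action and fruit ripening, which are not lists of the members' own pathways. Of 111 listed genes that were not members, on 7 lists, 19 rose and 6 fell between C12h and T12h in limma at an adjusted p of 0.05, where 24.1% of all 15270 genes passed. The 25 called were thus no larger a share of the listed genes than was called of all genes. AGL14, TPS04 and SAG29 were the listed genes that were members. The lists were matched by symbol alone, so the 91 members without a symbol could not be found in them. The polygalacturonase LOC110826274 is 1 of these. In ethylene perception, the receptor gene ERS1 had 1967 ± 1431 normalized counts in C12h and 10046 ± 1928 in T12h (mean ± SD, n = 3 libraries each). It rose by 2.57 on the log2 scale (SE 0.78, adjusted p = 0.0301 from limma). The receptor gene ETR1 rose by 0.92 and CTR1 by 0.78 on this scale, while EBP, an ethylene response factor, fell by 1.92 and EDR1, a kinase related to CTR1, fell by 1.03. On the list of ethylene synthesis 2 genes rose, 1 fell and 8 did not pass. The methionine salvage kinase MTK rose by 1.74. ACS10 rose by 2.22 at a low level, with means of 12.8 normalized counts in C12h and 67.4 in T12h. It was listed by its symbol alone, and its enzyme activity was not tested. EOL2, of the ETO1 family that marks the synthesis enzyme for degradation, fell by 2.55. Among cell wall genes XTH30, which acts on xyloglucan, rose by 2.501 and the galactosidase gene BGAL10 by 1.45, while the pectin methylesterase genes PME31 and PME1 fell by 2.06 and 1.66. NPQ1, a violaxanthin de-epoxidase, was the listed carotenoid gene that rose, by 0.87, and SHP1, a MADS-box gene, rose by 0.71. Of 18 genes of volatiles and lipids 6 rose, among them ACX2 of fatty acid oxidation by 2.21, LACS2 by 1.67, and the desaturases FAD2 by 1.17 and FAD6 by 1.12. Of 22 sugar and starch genes 4 rose, including the hexose transporter gene STP14 by 2.296, SWEET2 by 1.91 and the sucrose synthase SUS4 by 1.46, and the sucrose transporter gene SUT4 fell, from a mean of 1459 to 670 normalized counts. The count of 25 was 5 without C12h A or without C12h C, and 39 without C24h B, where 34% of all genes passed.

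Between C24h and T24h no listed gene and no gene in all passed in limma (0%), with 40 listed genes and 2843 genes in all at an unadjusted p of 0.05. DESeq2 on 13 libraries called 92 genes (0.602%) and no listed gene, and edgeR called none. Without C24h B, 31 listed genes rose and 15 fell, where 23.6% of 15279 genes passed. The listed genes and the members share their control libraries.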

How the data were processed

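RNA-seq of papaya pulp was analysed from the deposited table. The authors trimmed and checked the reads, aligned them with STAR to the Papaya1.0 assembly, kept uniquely aligned reads and normalized gene counts with DESeq2. The counting tool and how multicopy genes were counted are not given in the sources used here. The deposited signal is each count divided by a size factor for its library, so that every value is a whole multiple (within 0.001) of the worth of 1 read. Reads were recovered for 13 libraries. Values of T12h B and T24h B were whole multiples too, of 0.994 and 1.006. Steps so near 1 were not accepted as recovered reads, and tests on reads used the other libraries. The chi-square between pairs of libraries, a description, took the step as 1 read in all 15 libraries, T12h B and T24h B included.

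Comparisons used limma 3.58.1 (R 4.3.3) on log2(value + 1) with a variance trend, over 15270 genes with a mean of at least 5 and all 5 groups in 1 fit, with Benjamini-Hochberg adjustment over all genes. Harvests were compared with group in the model. Alternatives were other pseudocounts (0.5 and 5), TMM and quantile scaling, other filters, quality weights, the harvest as a block, 2 groups only, leaving out each library, and edgeR 4.0.16 or DESeq2 1.42.0 on 13 libraries. Leaving out C24h B and T24h C together was added after seeing the data. The limma steps were tested on simulated data. Harvest letters pair libraries across groups by label. Deviations from group means correlated no more within a harvest (median r = -0.0467, 30 pairs) than between harvests (-0.0362, 60 pairs), and the block was kept as an alternative. P-values measure the spread between pools.

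The members and lists were chosen with earlier results of these data known. Named genes are those with a symbol, the 10 most abundant in treated fruit, the 10 with the largest differences, the 3 on each side of each threshold, and listed genes called between C12h and T12h, up to 4 a list. Other genes were chosen after their values were seen. A planned search of promoters was not run.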

Additional observations from a re-analysis of the deposited data

How the results depend on the processing

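The set held 118 genes, and 3 when C24h B was counted among the controls. Leaving out 1 library at a time gave 108 to 186 genes, the most without T24h B, and 108 to 181 of them were higher in C24h B than in the other controls. Other pseudocounts, scalings and filters kept both counts within 1.5 times. With library quality weights 1, 7 and 3 members were called between C0h and C12h, C0h and C24h, and C12h and C24h, against 0 in the comparison as reported. All genes passed at 0.504%, 6.88% and 6.67% with these weights, and the cause was not tested. Leaving out any library called no member between control times or between harvests. For the listed genes between C12h and T12h, the count of 25 became 57 with quality weights and 9 with edgeR on 13 libraries. The share of all genes called moved too, from 24.1% to 44.3% with these weights and to 10.3% with edgeR. The count was 50 in a fit of C12h and T12h alone, for which the share of all genes was not kept. It was 40 without C24h B and T24h C, the setting chosen after seeing the data, where 34.4% of all genes passed. It ranged from 5 to 39 on leaving out 1 library. Between C24h and T24h the count of 0 became 50 with quality weights, where 32.4% of all genes passed. It was 39 without C24h B and T24h C, where 18.7% of all genes passed. On leaving out 1 library it ranged from 0 to 46, with 46 without C24h B, where 23.6% of all genes passed. With the harvest as a replicate block the counts were 26 at 12 h and 0 at 24 h, and no call count between control times moved from 0. Runs on 13 libraries change the tool and the libraries together. The size of difference between control times that 3 pools a group could show was not measured.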
